A study of Mus musculus with 23 samples.

Results

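The mitochondrial ribosomal proteins are the nuclear-encoded proteins of the ribosome that works inside mitochondria. Members were the protein-coding rows of the gene table whose symbol begins with Mrpl or Mrps followed by a digit. This rule gave 77 of 48895 gene symbols, 29 named Mrps after the small subunit and 48 named Mrpl after the large subunit. A further 5 rows carried the same names but were typed as pseudogenes and were left out. The 23 RNA-seq libraries came from male BALB/c mice that were 4 to 6 weeks old when they were assigned to groups. Control livers came from 5 sham-operated mice without tumors. Pre-metastatic livers and primary tumors came from 9 mice whose intestinal wall had been injected at the cecum with CT26 cells, a colon carcinoma line of BALB/c origin, and both tissues of each mouse were collected 3 weeks after injection. All tumors therefore derive from 1 cell line, and the sham mice received an operation but no cells.

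The mitochondrial ribosome translates only the messenger RNAs that mitochondrial DNA encodes, all of which specify subunits of the respiratory chain and ATP synthase. Its ribosomal RNAs are transcribed from mitochondrial DNA, whereas its proteins are translated in the cytosol and imported. Part of these proteins descend from bacterial ribosomal proteins and part are found only in mitochondria, and hepatocytes, which are rich in mitochondria, depend on this machinery for oxidative phosphorylation (OXPHOS). Symbols do not always match the subunit: Mrps30 and Mrps18a sit in the large subunit, and Mrps36 is a component of the alpha-ketoglutarate dehydrogenase complex rather than of the ribosome. By these assignments, from general knowledge, 26 members belong to the small subunit, 50 to the large subunit and 1 to neither.

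Promoter windows, from 250 bases before to 50 after each start site, were taken from RefSeq on GRCm38.p6, and 68 of the 77 members had at least 1 window, 74 windows in all. These windows were searched on both strands for letters of sites known for NRF1, ETS-family factors such as GABP, and YY1, which are known activators of nuclear genes for mitochondrial proteins. The ETS core CCGGAAG was found in 33.8% of member windows and 11.6% of all 21263 windows of protein-coding genes. The NRF1 core TGCGCA, which can overlap the full site, was found in 28.4% and 9.74%, and the YY1 core AAGATGG in 17.6% and 6.24%, respectively. The full palindromic NRF1 site was in 4.05% of member windows (Mrpl9, Mrpl32 and Mrpl39) and 1.33% of all coding windows. By contrast, the CCAAT letters (40.5% and 38.2%) and the GC box GGGCGG (52.7% and 46.2%) were about as frequent in both sets, and TATAAA was in 6.76% and 12.6%. The E box CACGTG was in 9.46% and 7.84%, and the hypoxia response core ACGTG in 25.7% and 20.9%. Since 3 members had more than 1 window, shares were also taken by gene. By gene, the E box was in 7.35% of members and 8.91% of coding genes. The hypoxia core was in 23.5% and 23.2%, and the CCAAT letters in 39.7% and 42.3%. The ETS, NRF1 and YY1 cores were in 36.8% and 12.9%, 29.4% and 11%, and 19.1% and 7.18%. A letter match does not show binding, and a relation of these letters to changes between tissues was not tested.

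The 130 bases before the start site are shown 5′ to 3′ for the 3 members with the full NRF1 site, with NRF1 letters in capitals. They lie at chr3:94443206-94443335, plus strand, chr13:14613038-14613167, minus strand, and chr16:84735245-84735374, minus strand. Mrpl32 holds the full site within overlapping NRF1 cores and a further core downstream, whereas Mrpl39, which had one of the largest falls in tumor, holds a single full site 125 bases before its start.
Mrpl9: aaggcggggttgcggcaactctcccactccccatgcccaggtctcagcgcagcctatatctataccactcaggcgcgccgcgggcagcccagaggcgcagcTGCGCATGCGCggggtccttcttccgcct
Mrpl32: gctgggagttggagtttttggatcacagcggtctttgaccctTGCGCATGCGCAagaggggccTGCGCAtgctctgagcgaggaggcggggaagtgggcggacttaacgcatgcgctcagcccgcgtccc
Mrpl39: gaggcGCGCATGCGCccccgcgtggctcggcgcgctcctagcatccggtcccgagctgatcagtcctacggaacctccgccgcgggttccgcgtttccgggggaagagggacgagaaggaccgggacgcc

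The ETS core is shown in the same stretch of 4 members that differed in how they changed between tissues: Mrpl34 (chr8:71464796-71464925, plus strand), Mrpl3 (chr9:105053138-105053267, plus strand), Mrpl52 (chr14:54426779-54426908, plus strand) and Mrps18a (chr17:46110874-46111003, plus strand). Mrps6 (chr16:92058206-92058335, plus strand), which had the largest rise in tumor, holds an NRF1 core and no ETS core here, whereas Mrpl3 also rose. Capitals mark the ETS core (on the reverse strand in Mrpl52), the NRF1 core in Mrps18a and Mrps6, and the YY1 core upstream in Mrpl52.
Mrpl34: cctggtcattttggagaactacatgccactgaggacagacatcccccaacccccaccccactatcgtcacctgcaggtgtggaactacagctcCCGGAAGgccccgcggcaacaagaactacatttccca
Mrpl3: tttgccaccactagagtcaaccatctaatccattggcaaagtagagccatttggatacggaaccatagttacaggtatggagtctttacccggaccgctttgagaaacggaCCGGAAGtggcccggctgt
Mrpl52: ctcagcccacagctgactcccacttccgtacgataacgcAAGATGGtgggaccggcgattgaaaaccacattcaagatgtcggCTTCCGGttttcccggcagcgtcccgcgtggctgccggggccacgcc
Mrps18a: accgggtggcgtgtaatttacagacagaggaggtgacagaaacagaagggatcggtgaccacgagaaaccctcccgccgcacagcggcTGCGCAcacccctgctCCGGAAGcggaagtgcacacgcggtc
Mrps6: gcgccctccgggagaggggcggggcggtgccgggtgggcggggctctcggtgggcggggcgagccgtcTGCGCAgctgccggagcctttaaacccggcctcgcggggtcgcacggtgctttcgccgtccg

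Libraries held 44587556 to 79773163 counts, and every member had at least 259 counts in every library, so all 77 passed the filter on low counts in each comparison. Expression levels are given as RPKM, in which counts are divided by gene length and by the library total. A few genes weighed more in liver than in tumor: the top 10 held 16.0% of a control library, 19.7% of a pre-metastatic library and 5.45% of a tumor library (medians). The 10 hepatocyte marker genes summed to at least 48350 RPKM in each liver and to between 24.0 and 429 RPKM in the tumors, where mice M10 and M12 had the most albumin (Alb) transcript. The 8 colon epithelium markers, of which 3 had no more than 3 counts in any control liver, had summed levels of 3.78-10.1 RPKM in control liver and 36.0-116 RPKM in tumor. Genome annotation placed 31 members across another gene of the table, 12 of them on the same strand. Whether reads were counted by strand is not given in the sources used here, so counts of those members may include reads of the neighbor. Mrpl48 and Mrpl23 also have pseudogenes with counts (Mrpl48-ps at 1.69-8.13 RPKM and Mrpl23-ps1 at 1.20-5.51 RPKM), with which reads may be shared.

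The members were moderately abundant transcripts, with medians over the 77 genes of 22.2 RPKM (control liver), 18.9 RPKM (pre-metastatic liver) and 24.8 RPKM (tumor). Mrpl12, part of the stalk of the large subunit and a known binding partner of mitochondrial RNA polymerase, had the highest mean over all libraries (114 RPKM), followed by Mrpl52 (94.7), Mrpl33 (72.3), Mrps21 (71.6) and Mrpl42 (66.5). The lowest by this mean were Mrps10 (5.78 RPKM), Mrpl1 (4.69) and Mrpl19 (4.55). By tissue, the lowest was Mrps25 in control liver (2.38 RPKM), Mrpl19 in pre-metastatic liver (2.50) and Mrpl1 in tumor (3.9995). Across the 77 genes, which are not independent replicates, mean log2 levels ranked almost identically in both kinds of liver (Spearman's rho 0.98) and less so between tumor and control liver (rho 0.78) or tumor and pre-metastatic liver (rho 0.81). Mrpl12 was the highest member in control liver at 154 ± 7.08 RPKM (SD, n = 5), against 116 ± 14.9 in pre-metastatic liver (n = 9) and 89.5 ± 11.0 in tumor (n = 9). Mrpl33, by contrast, stood at 41.9 ± 4.35, 39.4 ± 5.05 and 122 ± 15.4 RPKM. The order within the complex thus differed between tumor and liver.

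Summed over all members, RPKM ranged from 2123 to 2290 in control livers (median 2169), from 1513 to 2021 in pre-metastatic livers (median 1741) and from 2225 to 2608 in tumors (median 2434). Every pre-metastatic liver lay below every control liver. Tumors overlapped with control livers and lay above every pre-metastatic liver. In these bulk samples, fewer cells of a type and less RNA per cell cannot be told apart.

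**Figure D1:**
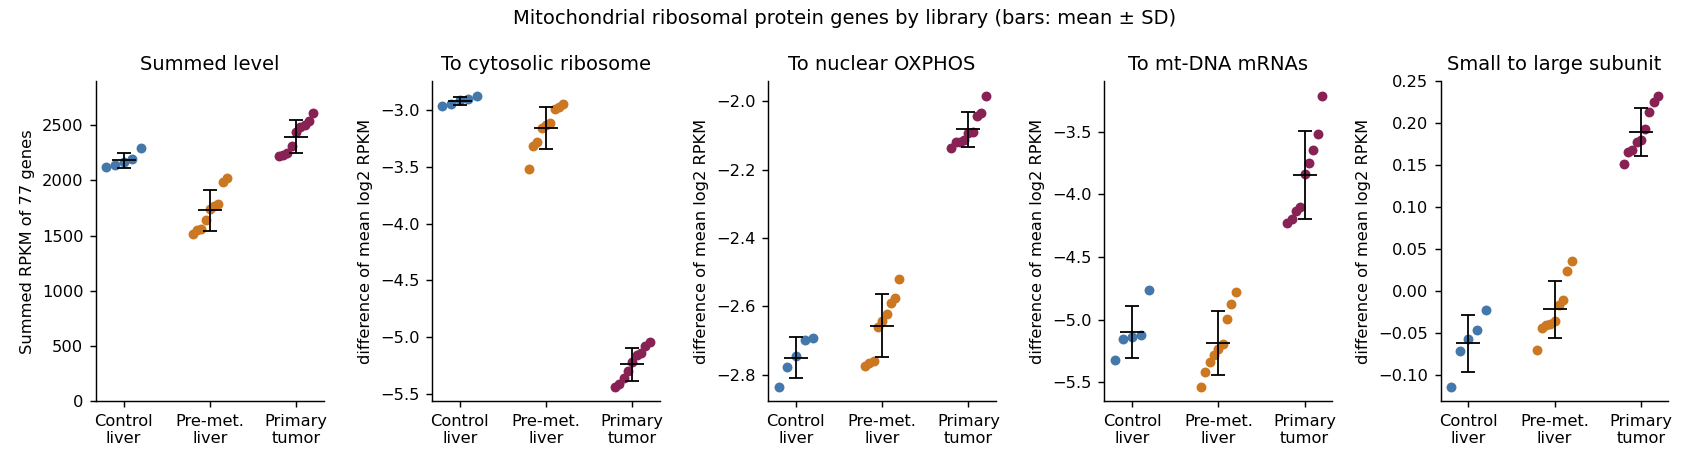
The first panel plots the summed RPKM of the 77 genes in each library, sorted within group, with mean ± SD; the other panels plot, per library, the mean log2 RPKM of these genes minus that of another list, and of the small minus the large subunit. Summed RPKM was lowest in pre-metastatic liver (1513 to 2021), and in tumor the 4 differences all lie outside the range of both liver groups.

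The effect of a tumor on the distant liver was examined by comparing pre-metastatic with control liver. Transcripts of the mitochondrial ribosome were lower in pre-metastatic liver. By edgeR's quasi-likelihood test with Benjamini-Hochberg adjustment, 40 of the 77 members fell, 1 rose and 36 did not pass. Among the 16987 genes tested, 31.0% were called, 13.3% lower and 17.7% higher. With scaling by library totals 47 members fell and 0 rose (16.5% and 14.0% of all genes). The median log2 fold change of the members was -0.25, with a range from -0.84 to 0.40, and that of all genes was 0.01. Fitted changes were below 0 in 72 members. On log2 CPM, counts scaled to library size, the 2 groups did not overlap in 14 members, all lower in pre-metastatic liver (4.94% of all genes were lower and 6.45% higher without overlap). The decrease was spread over both subunits, with 13 of 26 small-subunit and 27 of 50 large-subunit members falling and medians of -0.24 in each.

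The largest fall was that of Mrpl34, a small protein with a bacterial counterpart in the large subunit. Its control livers measured 72.5, 62.8, 74.1, 63.9 and 62.6 RPKM, and the pre-metastatic livers ranged from 30.4 to 45.3 with a median of 34.4. The groups were well separated, with a log2 fold change of -0.84 ± 0.0857 (SE, edgeR adjusted p = 2.64e-05). Mrpl47, also of the large subunit, measured 15.1, 17.0, 15.5, 19.4 and 17.5 RPKM in control liver and 8.32 to 11.8 (median 8.80) in pre-metastatic liver. It fell by 0.76 ± 0.0860 on the log2 scale (edgeR adjusted p = 4.46e-05), again without overlap. Mrps31, a small-subunit protein found only in mitochondria, measured 26.9, 13.8, 32.5, 28.7 and 22.9 RPKM in control liver and 13.7 to 19.1 (median 16.5) in pre-metastatic liver. It fell by 0.56 ± 0.144 (edgeR adjusted p = 0.00862), with 1 control liver inside the pre-metastatic range, and did not pass among livers in the earlier circadian phase, judged by clock gene transcripts (adjusted p = 0.0584). Among members with smaller changes, Mrpl15 of the large subunit fell by 0.54 ± 0.0920 (edgeR adjusted p = 0.000579), from 9.19-10.8 to 5.76-7.54 RPKM. Mrps35, a mitochondria-specific protein of the small subunit, fell by 0.51 ± 0.107 (edgeR adjusted p = 0.00241), from 15.7-20.1 to 8.62-14.2 RPKM. Both sets of ranges were apart.

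The only member called higher was Mrps25, a mitochondria-specific small-subunit protein encoded at chr6:92169512-92184023 (mm10). Its control livers measured 2.34, 2.26, 1.98, 2.12 and 3.18 RPKM, and pre-metastatic livers 2.47 to 3.67 (median 3.05). The ranges overlapped through the last control liver, and the log2 fold change was 0.40 ± 0.110 (edgeR adjusted p = 0.0132). This call was lost with scaling by library totals (adjusted p = 0.0685) and with limma on log2(RPKM + 1) (adjusted p = 0.0817). Mrps25 overlaps Nr2c2 on the opposite strand, a nuclear receptor gene at 0.988-1.94 RPKM in control and 1.41-3.18 RPKM in pre-metastatic liver. The part of Nr2c2 reads in the counts of Mrps25 was not tested.

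**Figure D2:**
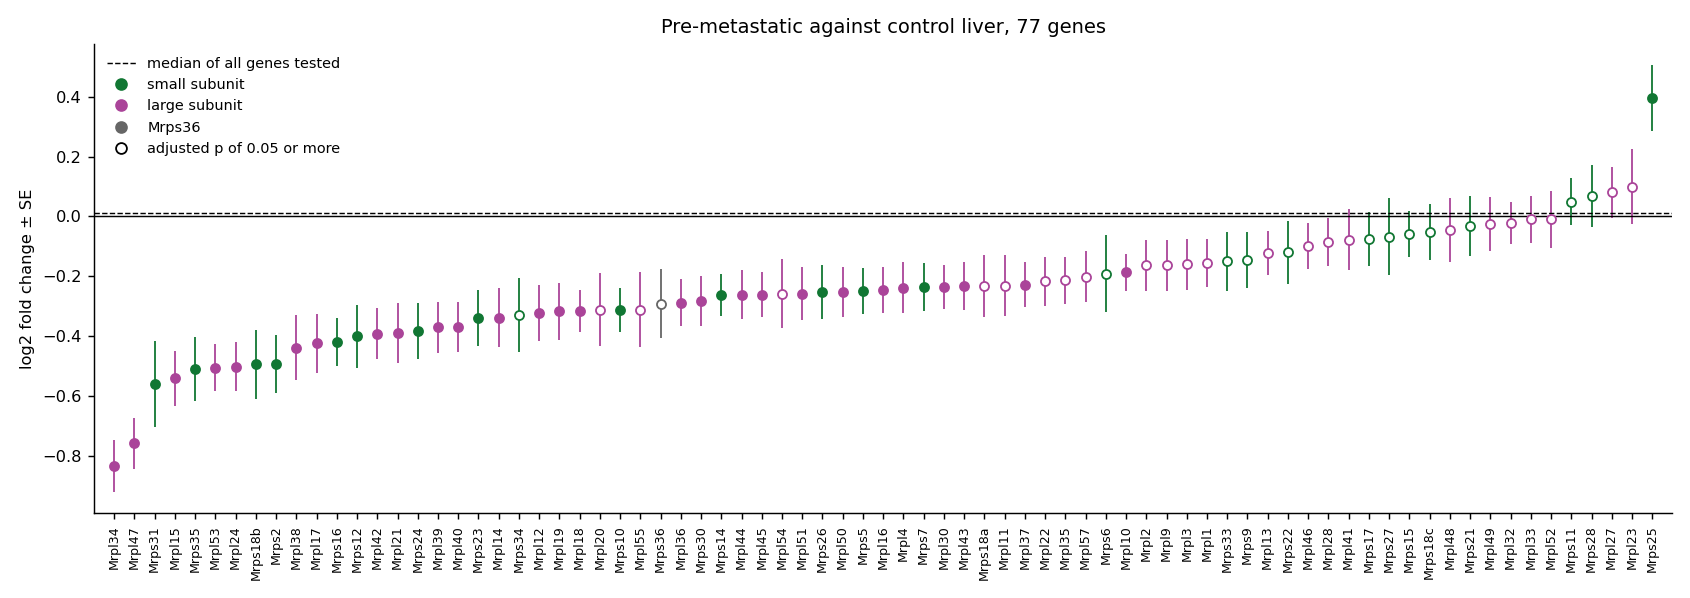
Log2 fold change ± SE of the 77 genes between pre-metastatic (n = 9) and control liver (n = 5), ranked, colored by subunit, with filled symbols for an edgeR adjusted p under 0.05. The values run from -0.84 for Mrpl34 to 0.40 for Mrps25, and 72 of 77 lie below 0.

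Other genes of mitochondrial translation were counted in the same fit, in which 13.3% of all genes fell and 17.7% rose. Of 24 assembly factors of the mitochondrial ribosome, 10 fell and 2 rose (median -0.26), with the largest falls in Mpv17l2 (-0.80) and the rRNA methyltransferase Mrm2 (-0.64) and the rises in Nsun4 (0.32) and Malsu1 (0.24). Of 16 translation factors, 8 fell and none rose (median -0.21), led by the initiation factor Mtif3 (-0.60) and Taco1, an activator of COX1 translation (-0.45). Among the 7 ribosomal proteins with other names, 3 fell, including Ptcd3 (-0.41) and Ict1 (-0.28). Of 17 mitochondrial tRNA synthetases, 1 fell (Yars2, -0.34) and 1 rose (Wars2, 0.50). The nuclear OXPHOS subunits, which the mitochondrial ribosome complements with subunits made inside the organelle, fell in 53 of 75 cases (median -0.30). Of 82 cytosolic ribosomal proteins tested, 5 fell and 6 rose, with a median of -0.01. Of the 13 mRNAs that mitochondrial DNA encodes, 2 fell (ND1, -0.53, and COX2, -0.47), with a median of -0.13. Of 10 transcriptional regulators of mitochondrial genes, Esrra (-0.84) and Nrf1 (-0.36) fell and Mycn, at under 1 RPKM on average in both livers, rose (1.34).

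Several measures differed between the livers beside this result. Leukocyte markers rose in 5 of 6 cases and summed to 19.8-38.6 RPKM in control and 31.4-74.4 RPKM in pre-metastatic liver, and macrophage markers rose in 6 of 7, from 114-201 to 169-465.7 RPKM. Of 18 cell cycle genes 15 rose (median log2 fold change 2.62), as did 5 of 6 neutrophil markers (2.05), 5 of 5 red cell markers (1.27), 3 of 6 B and plasma cell markers (1.74), 3 of 7 fibroblast markers (0.97), 2 of 5 colon epithelium markers (1.07) and 1 of 6 T cell markers (0.73). None of the 6 endothelial and 5 smooth muscle markers passed. Of the hepatocyte markers 3 rose and 1 fell of 10, with summed levels of 56590-67320 and 48350-95500 RPKM. By transcripts of clock genes, 4 of 5 control and 5 of 9 pre-metastatic livers were in an earlier phase. Within these 9 livers 26 members fell and 1 rose, against 10.9% and 14.7% of the genes tested there, and the median was again -0.25. The part of these cell types in the result was not tested.

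Tumor and pre-metastatic liver of the same mice were compared next, in a fit that did not pair the tissues by mouse. Most genes differed between these tissues (83.3% of 19749 called), and the direction of the members depended on how libraries were scaled. With TMM scaling, 62 members fell, 5 rose and 10 did not pass, against 39.5% of all genes lower and 43.8% higher, and the median log2 fold change was -0.71. With scaling by library totals alone, 16 fell and 50 rose, against 21.3% and 67.6% of all genes, with a median of 0.46. The switch moved all genes alike, their median from 0.13 to 1.30, and relative to it the members lay at -0.84. With limma on log2(RPKM + 1), which understates changes of low genes, the members' median was 0.446 and that of all genes 0.504, so the distance of the members from the median gene depended on the scale. Under both scalings 16 members fell and 5 rose, and 35 fell under TMM and rose by library totals. Groups did not overlap on TMM log2 CPM in 49 members that were lower and 3 that were higher in tumor (27.3% and 28.6% of all genes). Unless stated otherwise, the log2 fold changes that follow are those with TMM.

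The members changed unequally, from -2.01 to 1.58. The 5 that rose were Mrps6, Mrps25, Mrpl33, Mrpl19 and Mrpl3. Mrps6, a small-subunit protein of a bacterial family (chr16:92058336-92112227), measured 7.29-11.8 RPKM in pre-metastatic liver (median 9.58) and 50.4-83.6 RPKM in tumor (median 70.4). No tumor came near any liver, the control livers being at 10.9, 11.3, 13.3, 14.01 and 10.4. Its log2 fold change was 1.58 ± 0.118 (edgeR adjusted p = 1.41e-10). Mrps25 was 2.47-3.67 RPKM in pre-metastatic liver and 9.29-12.6 in tumor (log2 fold change 0.69 ± 0.0733, edgeR adjusted p = 3.05e-08). Mrpl33, a small large-subunit protein, was 33.7-46.7 and 103-145 RPKM (0.45 ± 0.0794, edgeR adjusted p = 2.76e-05). Mrpl19 and Mrpl3, both large-subunit proteins with bacterial counterparts, also rose. Mrpl19 went from 1.99-2.98 to 6.74-9.18 RPKM (0.36 ± 0.0799), with tumor M4 standing above the rest, and had fallen in pre-metastatic against control liver (-0.32 ± 0.0950). Mrpl3 went from 9.09-15.1 to 29.3-35.8 RPKM (0.26 ± 0.0755). With an offset for gene length, Mrpl19 (0.09, adjusted p = 0.359) and Mrpl3 (0.10, adjusted p = 0.246) were no longer called, and Mrpl3 did not pass in the earlier-phase set either (adjusted p = 0.0655).

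All 5 members that rose overlap another gene, whereas 0 of the 46 members without an overlapping gene rose under TMM. Of these 46, 38 fell under TMM, against 62 of all 77 members. By library totals 30 of these 46 rose and 11 fell, and of the 31 members with an overlapping gene 20 rose and 5 fell. The difference between both sets was not tested. Of all genes tested, 43.8% rose and 39.5% fell under TMM, and 67.6% rose and 21.3% fell by library totals. Mrps6 shares its strand with Slc5a3, a myo-inositol transporter, which was at 0.246-0.517 RPKM in pre-metastatic liver and 2.99-5.49 RPKM in tumor, and with an unnamed gene at no more than 0.810 RPKM. Nr2c2, on the strand opposite to Mrps25, was at 1.41-3.18 and 8.56-10.9 RPKM. Gcfc2, opposite to Mrpl19, was at 0.737-2.31 and 2.47-4.38 RPKM. The gene overlapping Mrpl33 (Gm38424) did not exceed 0.387 RPKM in tumor, and of the genes overlapping Mrpl3 none exceeded 0.562 RPKM. The part of these neighbors in the member counts was not tested.

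The largest fall was that of Mrps34, a mitochondria-specific small-subunit protein whose loss in humans causes Leigh syndrome (chr17:24895120-24896274). It measured 39.0-55.9 RPKM in pre-metastatic liver (median 47.3) and 22.1-35.2 RPKM in tumor (median 25.05), with no overlap, a log2 fold change of -2.01 ± 0.0975 and an edgeR adjusted p of 1.84e-13. By library totals the change was -0.83. Mrpl16, which lies near the peptidyl transferase center, measured 15.8-24.1 and 9.999-15.1 RPKM (-1.81 ± 0.0874, edgeR adjusted p = 1.80e-13). Mrpl39 was 7.53-13.3 and 5.34-7.60 RPKM (-1.79 ± 0.0818, edgeR adjusted p = 7.47e-14), with 1 liver and 1 tumor just touching in range. Mrpl46 (-1.76 ± 0.0968) and Mrpl55 (-1.72 ± 0.106) completed the 5 largest falls. All 5 also fell with scaling by library totals, with log2 fold changes of -0.83 to -0.55. None of these 5 except Mrpl46 overlaps another gene.

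**Figure D3:**
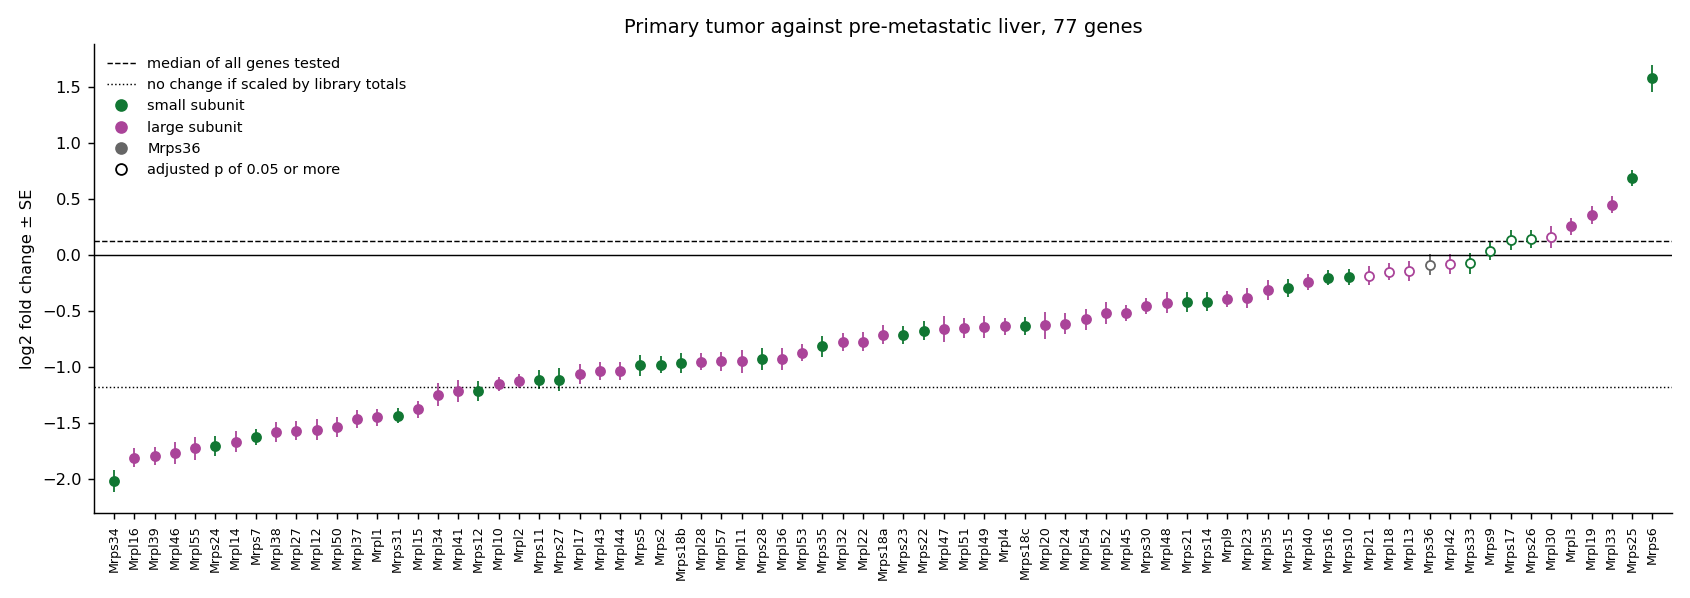
TMM log2 fold change ± SE of the 77 genes between primary tumor and pre-metastatic liver (n = 9 each), ranked and colored by subunit, with filled symbols for an edgeR adjusted p under 0.05. The dashed line is the median of all genes (0.13) and the dotted line the value that corresponds to no change when libraries are scaled by their totals; Mrps34 (-2.01) and Mrps6 (1.58) are at the ends.

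Differences between gene groups within a library do not depend on the scaling. The mean log2 RPKM of the members minus that of the cytosolic ribosomal proteins was -2.97 to -2.87 in control livers, -3.52 to -2.95 in pre-metastatic livers and -5.44 to -5.05 in tumors. Every tumor lay below every liver. Minus the nuclear OXPHOS subunits it was -2.84 to -2.69, -2.77 to -2.52 and -2.14 to -1.98, so the members lay closer to the OXPHOS subunits in tumor. Minus the mRNAs of mitochondrial DNA it was -5.32 to -4.76, -5.54 to -4.78 and -4.23 to -3.21. The mean of the small subunit relative to the large subunit rose from between -0.0704 and 0.0362 in pre-metastatic liver to between 0.151 and 0.233 in tumor. Control livers were between -0.114 and -0.0225. The small-subunit mean includes Mrps6 (on average 9.89 RPKM in pre-metastatic liver and 67.1 in tumor) and Mrps25 (2.96 and 10.8). Their part in this shift was not tested. No tumor overlapped with a liver in any of these 4 measures. Minus the mitochondrial translation factors it was 0.957 to 1.03, 0.898 to 1.05 and 1.15 to 1.27, again without overlap. Minus the assembly factors tumors overlapped with both livers (1.71 to 1.83, 1.70 to 1.82 and 1.76 to 1.905). Minus the tRNA synthetases tumors (1.957 to 2.186) overlapped with pre-metastatic livers (2.041 to 2.185) and lay below control livers (2.216 to 2.389). In Mrps6 against Mrps34, the log2 difference went from between -2.44 and -2.08 to between 1.06 and 1.68.

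The related lists are given under TMM, with the counts by library totals where the direction depended on the scaling. Among all genes tested, the shares higher and lower in tumor were 43.8% and 39.5% under TMM. By library totals they were 67.6% and 21.3%. Cytosolic ribosomal proteins rose in 82 of 84 cases (median 1.28), and nuclear OXPHOS subunits fell in 74 of 75 (median -1.27). By library totals 83 cytosolic ribosomal proteins rose, and 32 OXPHOS subunits fell and 12 rose. All 13 mRNAs of mitochondrial DNA fell under both scalings (medians -2.11 and -0.93). Of the assembly factors 20 of 24 fell and 4 rose under TMM (4 fell and 13 rose by library totals), with the largest fall in the GTPase Gtpbp10 (-4.26, and -3.08 by library totals) and in Nsun4 (-1.99) and the largest rises in Mrm1 (0.89) and Noa1 (0.69). Of the translation factors 14 of 16 fell and Guf1 rose (0.57), against 5 and 9 by library totals, with the largest falls in Taco1 (-2.23) and Mtif2 (-1.72). Of the tRNA synthetases 14 of 17 fell, led by Fars2 (-2.01) and Nars2 (-1.84), and Mars2 rose (1.66), against 4 and 10 by library totals. Among the ribosomal proteins with other names Ict1 (-1.27) and Aurkaip1 (-0.999) fell most and Ptcd3 rose (0.43), whereas by library totals 0 of 7 fell and 5 rose. Among the regulators, Myc (2.44) and Pprc1 (1.11) rose and Mycn (-4.63) and Ppargc1a (-2.08) fell. Mycn fell from the low level in liver given above. Of the 18 nucleolar genes of cytosolic ribosome biogenesis, 17 rose.

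**Figure D4:**
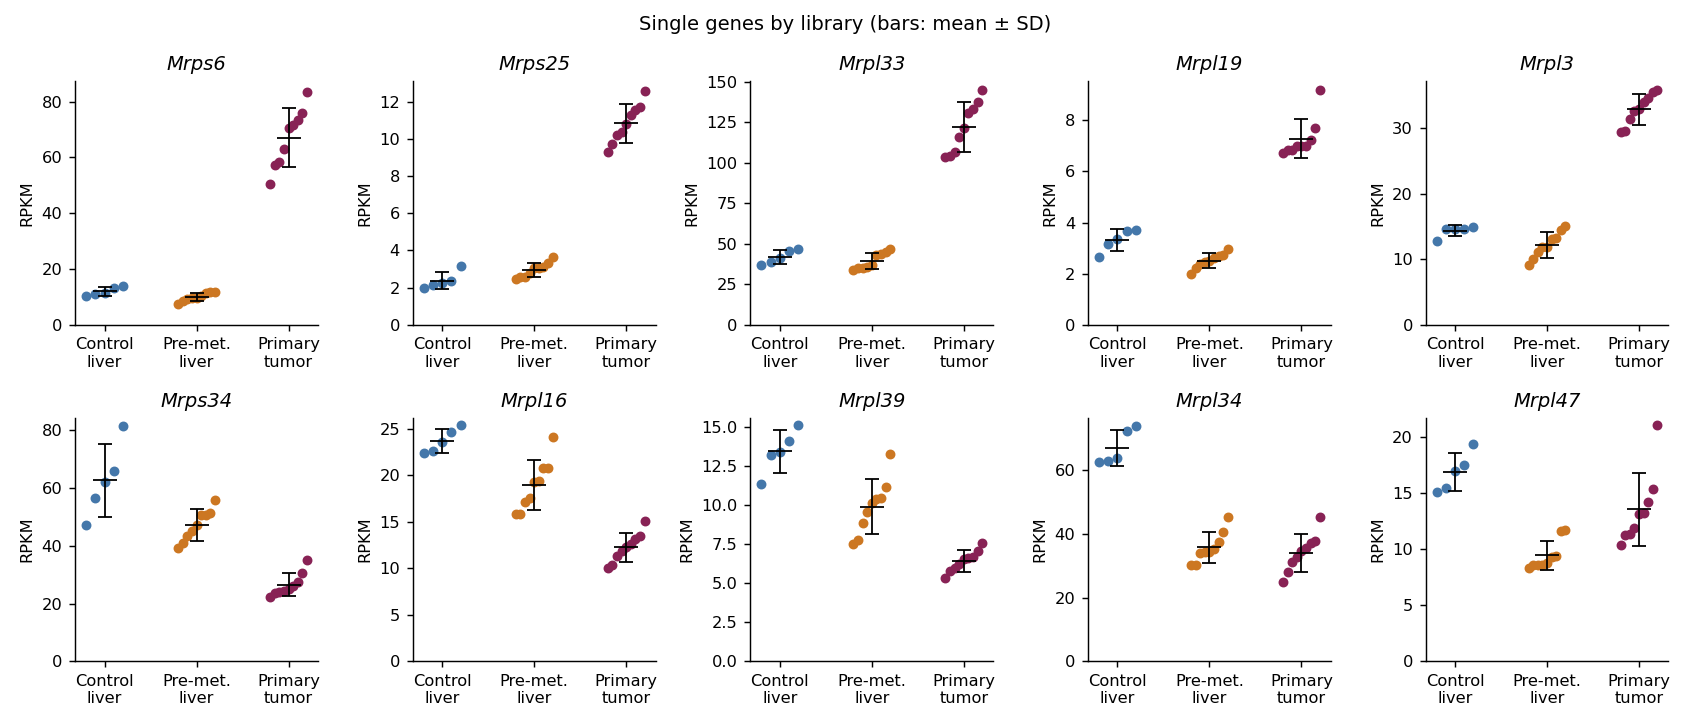
RPKM of 10 genes in each library, sorted within group, with mean ± SD; the upper row holds the 5 genes that rose in tumor against pre-metastatic liver and the lower row 3 of the largest falls there and 2 of the largest falls in pre-metastatic against control liver. Tumors stand apart from all livers for Mrps6 (50.4-83.6 RPKM against at most 14.01), and Mrpl34 separates control livers from both other groups.

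Tumor against control liver shares its tumors with the comparison above and its control livers with the first. Here 68 members fell, 3 rose and 6 did not pass under TMM (38.1% and 44.2% of 19320 genes, 82.3% called in all), with a median of -0.97, and by library totals 25 fell and 35 rose (21.4% and 66.6%), with a median of 0.11. The median of all genes was 0.18 and 1.26, and relative to it the members lay at -1.15. With limma on log2(RPKM + 1) the medians were 0.0969 for the members and 0.480 for all genes. On TMM log2 CPM 61 members were lower and 3 higher without overlap (31.0% and 34.1% of all genes). The largest falls were in Mrps34 (-2.32 ± 0.129), Mrpl39 (-2.14 ± 0.0815), Mrps24 (-2.07 ± 0.0935), Mrpl34 (-2.06 ± 0.119) and Mrpl16 (-2.04 ± 0.0909), and each also fell by library totals, with log2 fold changes of -1.24 to -0.95. Mrps6 (1.40 ± 0.127), Mrps25 (1.11 ± 0.107) and Mrpl33 (0.46 ± 0.0954) rose under both, but Mrpl33 was not called with an offset for gene length (0.07, adjusted p = 0.470). Mrps24, a small-subunit protein of a bacterial family, measured 76.0, 66.8, 69.7, 64.8 and 62.2 RPKM in the control livers, against 39.9-62.3 RPKM in the pre-metastatic livers and 29.1-38.8 RPKM in the tumors. Mrpl34 differed between control liver and both other tissues in RPKM, while its levels in tumor (median 34.6) overlapped with those in pre-metastatic liver.

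The paralogs Mrps18a, Mrps18b and Mrps18c descend from 1 bacterial protein and occupy different sites. In pre-metastatic against control liver Mrps18b fell (-0.49, edgeR adjusted p = 0.00465), while Mrps18a (-0.23, adjusted p = 0.100) and Mrps18c (-0.05, adjusted p = 0.705) did not pass. The differences among them were not tested. Mrps18a passed without control liver C7 (adjusted p = 0.0456), and in earlier-phase livers alone Mrps18b did not pass either (adjusted p = 0.0942). In tumor against pre-metastatic liver the log2 fold changes were -0.71, -0.96 and -0.63 with TMM and 0.46, 0.22 and 0.54 by library totals. Their levels in tumor were 31.3 ± 3.05, 28.7 ± 1.54 and 60.3 ± 5.25 RPKM (SD, n = 9).

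The members varied together across the 9 tumors. On TMM log2 CPM, the median Pearson's r over the 2926 pairs of members was 0.34, against -0.0015 over all gene pairs, and 31.5% of member pairs against 10.02% of all pairs were above 0.5. As a description of 9 libraries that share scaling and depth, this carries no test. The same median was 0.44 among nuclear OXPHOS subunits and 0.715 among cytosolic ribosomal proteins. Pairs within Mrps (0.35), within Mrpl (0.32) and between them (0.36) had similar medians. The amplitude was small, since the mean log2 CPM of the members spanned 0.28 over the tumors and a member's SD had a median of 0.16, against 0.28 for all genes.

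Set against the mean of the others, 74 of 77 members had r above 0, 50 had r above 0.5, and the median was 0.58. Among all 17778 genes, 11.8% had r above 0.5 with the mean of the members, and the median was 0.01. The highest were Mrpl12 (0.92), Mrps23 (0.90), Mrpl42 (0.88), Mrpl15 (0.88) and Mrpl48 (0.85). Mrpl12 ranged 1.44-fold over the tumors, from M6 to M10, and Mrps23, a mitochondria-specific small-subunit protein, 1.28-fold between the same tumors. The lowest were Mrpl14 (-0.23), Mrpl30 (-0.19), Mrpl24 (-0.04), Mrps18b (0.04) and Mrps36 (0.09). Without tumor M6 the value of Mrps18b was -0.50 and that of Mrpl14 was 0.19, so their values rest in part on that tumor. Mrps36 is the member outside the ribosome. Mrpl24 and Mrpl30 ranged more widely than Mrpl12, 1.76-fold and 1.74-fold, with both highest in M7. Removing a gene-length trend lowered the median pair r to 0.23 and the number above 0.5 to 37, the members being short genes (median 1404 bases against 2802 for protein-coding genes).

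A score, the mean standardized log2 CPM of the members, was lowest in tumor M6 (-0.95), then M5 (-0.58), M1 (-0.37), M8 (-0.17), M2 (0.05), M7 (0.39), M4 (0.41) and M12 (0.44), and highest in M10 (0.76). It went with the nuclear OXPHOS subunits (Pearson's r 0.91, Spearman's rho 0.95) and with the mitochondrial translation factors (0.88, rho 0.85). Without the 2 tumors farthest from the median of the list, r was 0.85 and 0.92. It ran opposite to 20 hypoxia genes (r -0.84, rho -0.88, and -0.93 without the 2 farthest). With 18 nucleolar genes of cytosolic ribosome biogenesis r was 0.84 (rho 0.65), or 0.57 without the 2 farthest and 0.81 without M10 and M12. It was 0.46 with the cytosolic ribosomal proteins and 0.06 with the mRNAs of mitochondrial DNA. Tumors M10 and M12, with the most hepatocyte transcripts, had the 2 highest scores, and without them r was 0.85 with OXPHOS, -0.81 with hypoxia and 0.001 with the cytosolic ribosome. Of the 25 relations computed this way, other values were 0.63 for cell cycle genes, -0.68 for neutrophil markers and 0.52 for total counts, and these became 0.32, -0.43 and -0.41 without the 2 farthest tumors. Without M10 and M12 they were 0.76, -0.48 and 0.36, and centered within clock phase 0.67, -0.72 and 0.39. With tumors centered within clock phase, r was 0.91 with OXPHOS and -0.90 with hypoxia, and the 5 and 4 tumors of each phase are too few for a value of their own.

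**Figure D5:**
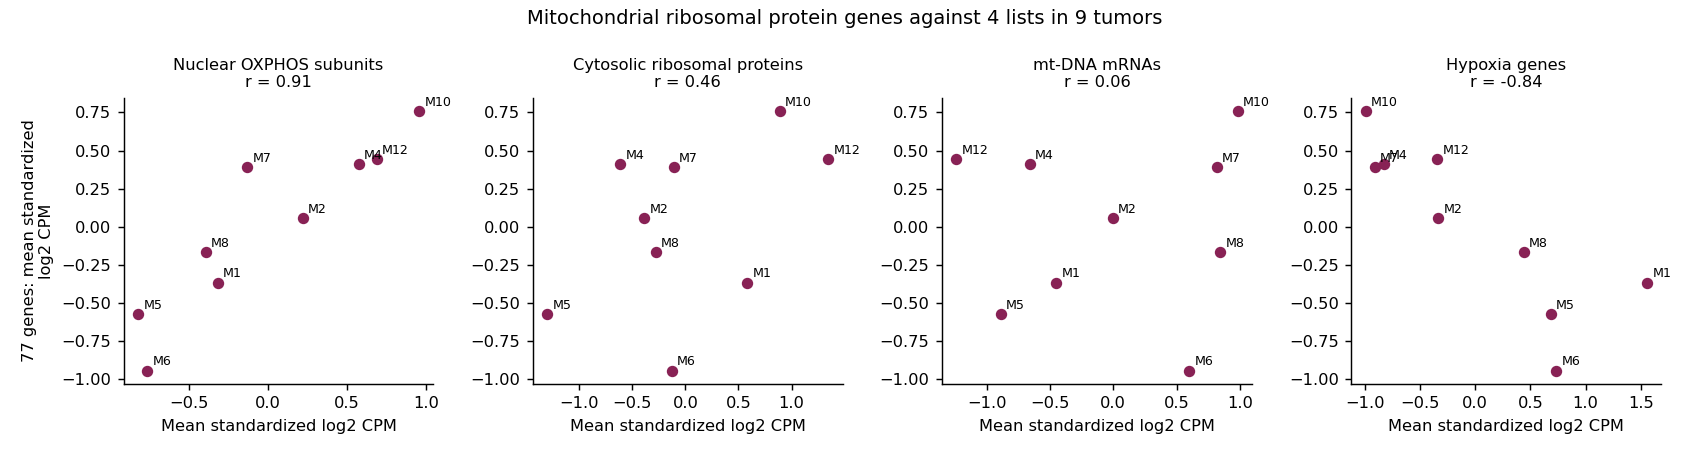
Each point is 1 of 9 tumors; the vertical axis is the mean standardized log2 CPM of the 77 genes and the horizontal axes are those of 4 other gene lists. The score rises with the nuclear OXPHOS subunits (r = 0.91), falls with hypoxia genes (r = -0.84) and shows little relation to mRNAs of mitochondrial DNA (r = 0.06).

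Outside the members, the genes with the highest correlation with this mean across the 9 tumors were Dctpp1 (0.98), which hydrolyzes deoxycytidine triphosphate, the cyclophilin Ppia (0.95), the single-strand DNA-binding protein Rpa1 (0.94), Ptges2 (0.94) and Rcc1 (0.93). These 5 are the top of 17778 genes ranked on 9 points. The member mean of a tumor and of the liver of the same mouse had r = 0.64 and rho = 0.65 over 9 mice, and r = 0.49 without the 2 mice whose livers were farthest from the median.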

How the data were processed

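The paper states that RNA extraction and RNA-seq were done by RiboBio. Libraries were made from poly(A) RNA with the NEBNext Ultra kit. The submitters' processing notes name HISAT2, HISAT, HTSeq 0.6.0 and the mm10 build. The authors deposited 1 table with raw counts and RPKM for each of 23 libraries, and no replicates were pooled. Recomputing the deposited RPKM from counts, lengths and totals changed no value by more than 1.75e-06 of itself. Two-sided quasi-likelihood tests were run here with edgeR 4.0.16 (R 4.3.3, TMM scaling) on genes reaching 10 counts in 5 or more libraries of a comparison, and p-values were adjusted by Benjamini-Hochberg over all genes tested, with a threshold of 0.05. The steps were tested on simulated counts. Between the livers, 12 of 100 genes changed by 0.5 on the log2 scale and 43 of 100 changed by 1 were called in the right direction. In tumor against pre-metastatic liver these were 28 and 63. Of unchanged genes, 0.0242% and 0.021% were called. A gene that did not pass is thus not shown to be unchanged. DESeq2 1.42.0, limma 3.58.1 on log2(RPKM + 1), other scalings, other filters and leaving out libraries were alternatives. The libraries of a mouse number come from the same mouse, and deviations from the group means correlated at 0.09 on average within a mouse and -0.01 between mice. Covariation and figures used log2 CPM with a prior count of 1, pandas 2.3.3 and matplotlib 3.10.9. No libraries of a group were copies of each other: their counts differed beyond sampling noise, with a smallest chi-square per degree of freedom of 49.3. The precision of each value is limited by its counts, and counting error does not cover variation between mice.

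The members and lists were chosen with earlier results of these data known. Of the genes matching the name pattern of cytosolic ribosomal proteins, 14 that are not such proteins were removed after their names were seen, leaving 86. The named genes are the 5 largest rises and falls among members called in each comparison, the 5 highest and 3 lowest levels, the 5 highest and 5 lowest correlations across tumors, the Mrps18 paralogs, the 2 largest rises and falls called in each list of mitochondrial translation, and the 5 nearest outside genes. Overlapping neighbors of members that rose, mitochondrial mRNAs and regulators were named after their values were seen.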

Additional observations from a re-analysis of the deposited data

Results flagged for a closer look

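In 96 groups of libraries, 31 named members and the summed level in each of the 3 tissues, 3 had a library far from the rest by Dixon's test, where chance flags about 1 in 20, or 4.8. Mrpl3 was at 12.8 RPKM in control liver C1, against 14.6-14.9 in the other control livers. Mrpl19 was at 9.18 RPKM in the tumor of mouse M4, against 6.74-7.71 in the other tumors. Mrpl47 was at 21.1 RPKM in the tumor of mouse M2, against 10.3-15.3 in the other tumors.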

How the results depend on the processing

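Directions in tumor against liver depended on the scaling. For tumor against pre-metastatic liver, library totals gave 16 falls, 50 rises and a median log2 fold change of 0.464, limma 16, 50 and 0.446 (all genes 0.504), and upper quartile scaling 9 rises and a median of -0.5307. The Mrps18a, Mrps18b and Mrps18c changes turned to 0.464, 0.2199 and 0.5412 with library totals and to 0.4568, 0.2275 and 0.5449 with limma. An offset for gene length gave 3 rises and a median of -0.9292, and the earlier clock phase alone a median of -0.8351. For tumor against control liver, library totals gave 25 falls, 35 rises and a median of 0.1085, limma 27, 35 and 0.09691 (all genes 0.480), and upper quartile scaling 6 rises and a median of -0.7909. Here Mrps18a and Mrps18c turned to 0.158 and 0.4156 with library totals and to 0.1576 and 0.408 with limma. The median was -0.8608 without a filter and -1.19 with the length offset. For pre-metastatic against control liver, 0 members rose with library totals and with limma, and Mrps18c was at 0.06333 with the length offset. Against 40 falls in the main fit, 26 members fell in the earlier clock phase alone, which is also a smaller set of livers. Without a filter 28 fell, with the length offset 33, with all 23 libraries in 1 fit 33 and with upper quartile scaling 38. The number was 41 with DESeq2 size factors, 44 with DESeq2, 47 with library totals and 49 with limma. The cause of these shifts was not tested.

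Leaving out 1 library at a time, 27 to 44 members fell and 1 rose between the livers (median -0.2671 to -0.2250), the fewest without control liver C5. Likewise, 61 to 63 fell and 5 to 6 rose in tumor against pre-metastatic liver (-0.7576 to -0.6921), and 65 to 68 fell and 3 rose against control liver (-1.014 to -0.9329). Across tumors the median r of pairs was 0.2722 to 0.4090, with 39 to 55 members above 0.5. With the mouse as replicate block, 63 members fell and 5 rose in tumor against pre-metastatic liver (median -0.7089), and no call of a named member changed. Leaving out mice M10 and M12, an alternative chosen after seeing the data, gave 63 and 5 against pre-metastatic and 67 and 3 against control liver.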
